A study of Mus musculus with 6 samples.

Results

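B cells make antibodies, and 9 genes that mark B cells and the plasma cells they become were followed in the retinal pigment epithelium and choroid (RPE-choroid) of mice with subretinal fibrosis (SRF). The genes were chosen by name, for what they encode, and were found in the count tables by Ensembl gene identifier. Of the 9, 8 were among the 15663 genes listed in every library (*Jchain*, *Igkc*, *Ighm*, *Igha*, *Cd79a*, *Cd79b*, *Mzb1* and *Xbp1*), and 1 (*Pou2af1*) was not listed. The tables list a gene only if it had at least 1 count in all 6 libraries, so *Pou2af1* was not detected in every library, and its level was not analysed here. After a filter on low counts 6 of the 9 were tested, among 13454 genes in all.

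RNA was sequenced from the RPE-choroid of 3 control and 3 SRF mice, all C57BL/6 by the labels, and C57BL/6J, male and 8 to 10 weeks old by the study's methods, with 1 mouse per library. Control mice were untreated. In SRF mice each eye received 4 laser burns, every lesion was burned again after 10 days, and the tissue was collected 20 days after that second laser. The labels name the RPE-choroid and no dissection of the lesions, so each library is of the whole tissue, in which fewer cells of a type and less RNA per cell cannot be told apart.

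An antibody is built of heavy and light chains, each with a variable part and a constant part. Naive B cells carry IgM and IgD on their surface, held there by the signalling partners CD79A and CD79B. After activation a B cell can switch its heavy chain to IgG or IgA and turn into a plasma cell, which secretes antibody. Secreted IgA and IgM are joined into polymers by the J chain, and the transcription factor XBP1 enlarges the secretory machinery that plasma cells depend on. The choroid holds resident leukocytes, and its vessels, unlike those of the neural retina, are leaky.

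The gene at the head of the results was *Igkc*, the constant part of the kappa light chain, which most mouse antibodies carry. It lies at chr6:70726435-70726966 on the plus strand of GRCm38 (ENSMUSG00000076609). The first 280 bases of its coding sequence (chr6:70726435-70726714, from the GENCODE M21 transcripts) are shown with those of the lambda constant genes *Iglc2* (chr16:19198574-19198853, minus strand) and *Iglc3* (chr16:19065402-19065681, minus strand). The share of kappa among light chain counts, given below, depends on telling kappa from lambda. It does not depend on telling *Iglc2* from *Iglc3*, whose separate counts are also given below. Capitals mark the positions at which *Iglc2* and *Iglc3* differ from each other in an end-to-end alignment of the whole coding sequences.
Igkc: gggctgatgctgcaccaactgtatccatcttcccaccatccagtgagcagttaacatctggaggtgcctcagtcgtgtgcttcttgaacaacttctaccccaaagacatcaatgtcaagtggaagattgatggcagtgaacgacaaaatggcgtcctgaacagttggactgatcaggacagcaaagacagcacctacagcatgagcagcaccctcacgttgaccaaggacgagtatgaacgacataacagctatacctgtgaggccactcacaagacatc
Iglc2: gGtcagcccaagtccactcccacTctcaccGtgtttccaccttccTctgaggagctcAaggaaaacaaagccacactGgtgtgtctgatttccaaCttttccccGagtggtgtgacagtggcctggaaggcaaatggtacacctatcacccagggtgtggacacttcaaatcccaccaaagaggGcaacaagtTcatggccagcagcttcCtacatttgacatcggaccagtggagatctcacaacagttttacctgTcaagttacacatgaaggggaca
Iglc3: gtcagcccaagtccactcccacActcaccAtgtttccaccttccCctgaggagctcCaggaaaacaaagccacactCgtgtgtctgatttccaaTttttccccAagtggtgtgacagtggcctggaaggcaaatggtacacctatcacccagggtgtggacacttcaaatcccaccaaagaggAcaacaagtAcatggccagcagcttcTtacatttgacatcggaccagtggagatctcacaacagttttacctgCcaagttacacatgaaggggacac
The lambda pair had 12 differences over 315 aligned positions, an identity of 96.2%, so counts of *Iglc2* and *Iglc3* are uncertain between the 2 genes. *Igkc* and *Iglc2* were 57.9% identical. No stretch of 50 bases of the annotated *Igkc*, *Ighm*, *Igha*, *Cd79b* or *Xbp1* transcripts occurred in a transcript of another gene, whereas 22.3% of those of *Iglc3* and 7.65% of those of *Iglc2* did.

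Counts on genes summed to between 13667310 and 24356023 per library, so that 3 counts corresponded to 0.123 to 0.220 CPM, the unit that scales counts to library size. Photoreceptor RNA was uneven between libraries, with a summed CPM of 17 photoreceptor genes of 13882 in control mouse 1 and 13411 in SRF mouse 3 and between 783 and 1894 in the other 4. None of the 17 had an unadjusted p under 0.05 in edgeR between the groups, and their median log2 fold change was -0.12. *Rpe65*, which marks the RPE, had 2524 to 4687 CPM in the 6 libraries, and *Cd68*, which marks macrophages, 68.5 to 189 CPM. Markers of the labelled tissue were thus abundant in all 6 libraries, and retinal RNA was present in each. The B cell surface gene *Ms4a1*, which encodes CD20, was close to the limit of counting, with 8, 4 and 20 counts in the controls (mice 1, 2 and 3, the order used throughout) and 16, 6 and 14 in SRF mice.

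*Igkc* had 211, 175 and 167 counts in the controls and 476, 568 and 454 in SRF mice. In CPM scaled by TMM, which corrects for library size and composition, these were 15.7, 9.49 and 6.97 against 25.7, 31.6 and 25.4. Every SRF mouse lay above every control mouse. The means were 10.7 ± 4.50 and 27.6 ± 3.49 CPM (SD, n = 3 mice each), a ratio of 2.57. The log2 fold change was 1.37 (SE 0.30), with an unadjusted p of 0.00255 and an adjusted p of 0.309 in edgeR (quasi-likelihood test, Benjamini-Hochberg adjustment over all tested genes). No tested gene passed both the adjusted p of 0.05 and a log2 fold change of 0.5 in that test (0.0% of 13454), and 943 genes (7.01%) had an unadjusted p under 0.05. DESeq2 on the same counts gave *Igkc* the same log2 fold change of 1.37 with an adjusted p of 0.00271, and called 153 genes (1.14%, and 0.803% with SRF higher), so the call of *Igkc* rested on the tool. A log2 fold change at least as large was found for 0.297% of tested genes. Within the photoreceptor-rich pair, *Igkc* was 15.7 CPM in control mouse 1 and 25.4 CPM in SRF mouse 3. Without that pair its log2 fold change was 1.80, with an adjusted p of 0.0116 in edgeR. That fit called 0.837% of its genes with SRF higher. It left out 1 mouse of each group, the control mouse with the highest *Igkc* and the SRF mouse with the lowest.

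**Figure D1:**
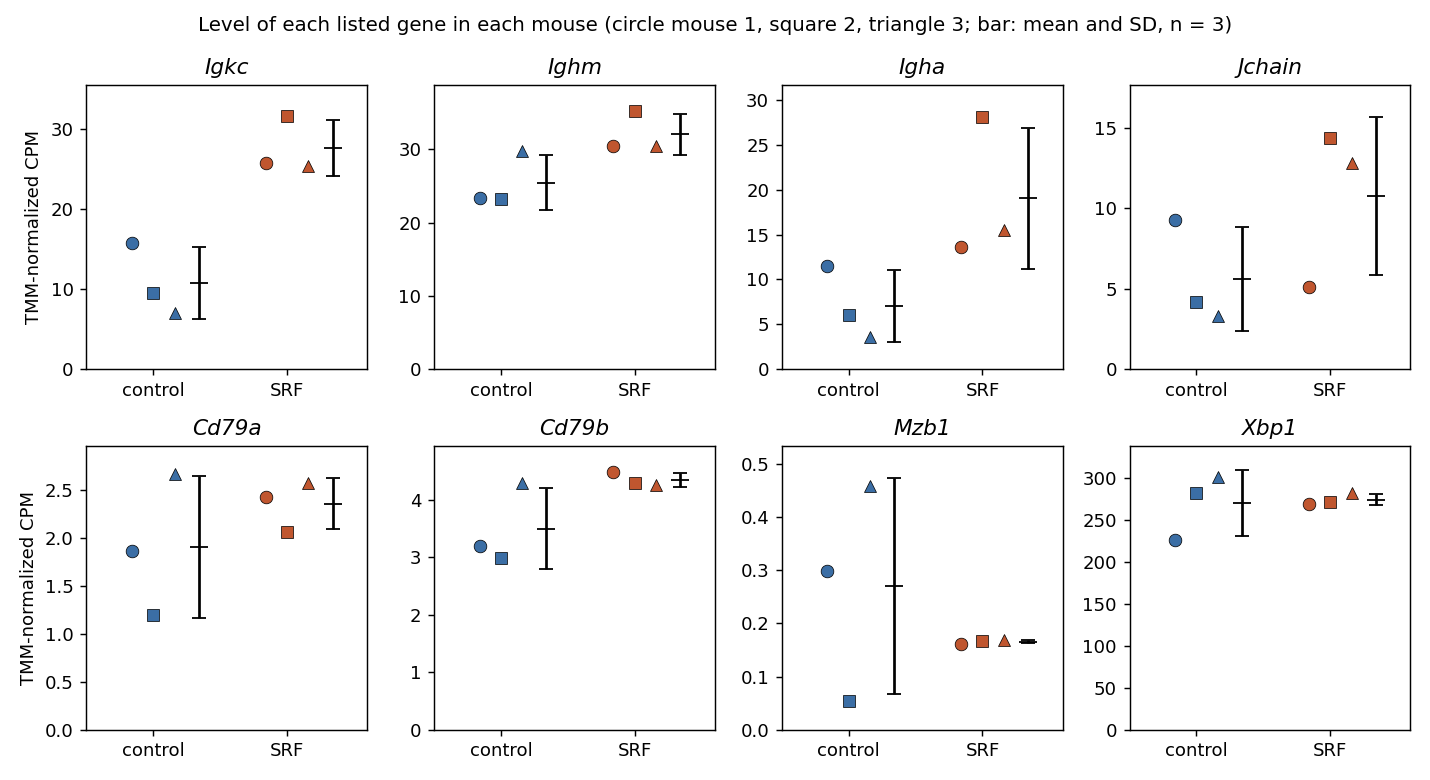
TMM-normalized CPM (y axis, from 0, with its own scale in each panel) of the 8 listed genes in each of the 3 control and 3 SRF mice, with the mean and SD beside the points. All 3 SRF mice lie above all 3 control mice for *Igkc*, *Ighm* and *Igha*, and the groups overlap for *Jchain*, *Cd79a*, *Cd79b*, *Mzb1* and *Xbp1*.

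*Ighm*, the constant part of IgM (ENSMUSG00000076617, chr12:113418558-113422730, minus strand), had 313, 429 and 713 counts in the controls and 564, 633 and 543 in SRF mice, or 23.3, 23.3 and 29.7 against 30.5, 35.2 and 30.4 CPM. The groups did not overlap, but control mouse 3 and SRF mouse 3 were less than 1 CPM apart. The means were 25.4 ± 3.73 and 32.1 ± 2.77 CPM, and the log2 fold change of 0.33 (SE 0.15) had an adjusted p of 0.735 in edgeR and 0.871 in DESeq2. Gene counts do not separate the secreted from the membrane form of IgM.

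*Igha*, the constant part of IgA (ENSMUSG00000095079, chr12:113254830-113260236, minus strand), had 154, 112 and 86 counts in the controls and 252, 505 and 277 in SRF mice. In CPM these were 11.5, 6.08 and 3.59 against 13.6, 28.1 and 15.5. SRF mouse 2 was far above the other SRF mice, and SRF mouse 1 was close to control mouse 1. The means were 7.04 ± 4.03 and 19.1 ± 7.88 CPM, a ratio of 2.71, and the log2 fold change of 1.45 (SE 0.47) had an unadjusted p of 0.0179 and an adjusted p of 0.539 in edgeR and an adjusted p of 0.0916 in DESeq2. A log2 fold change at least as large was found for 0.223% of tested genes. The unadjusted p was above 0.05 when either control mouse 2 (0.0563) or SRF mouse 2 (0.0719) was left out of the edgeR fit. Without control mouse 1 and SRF mouse 3 the log2 fold change was 2.12, with an adjusted p of 0.0393 in edgeR. That fit had 2 mice in each group and left out the control mouse with the highest *Igha*.

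*Jchain*, the joining chain of polymeric IgA and IgM (ENSMUSG00000067149, chr5:88519809-88527891, minus strand), had 125, 77 and 79 counts in the controls and 95, 258 and 229 in SRF mice. In CPM these were 9.31, 4.18 and 3.30 against 5.14, 14.4 and 12.8. The groups overlapped, since SRF mouse 1 lay below control mouse 1 while the other SRF mice lay above every control mouse. The means were 5.59 ± 3.25 and 10.8 ± 4.94 CPM, and the log2 fold change of 0.96 (SE 0.52) had an adjusted p of 0.827 in edgeR. The log2 fold change was 1.53 without control mouse 1 and 0.68 without control mouse 3, with no call in either fit.

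Of the partners of the surface antibody, *Cd79b* (ENSMUSG00000040592, chr11:106311341-106314762, minus strand) had 43, 55 and 103 counts in the controls and 83, 77 and 76 in SRF mice, or 3.20, 2.98 and 4.30 against 4.49, 4.29 and 4.26 CPM. Control mouse 3 was within the range of the SRF mice. The log2 fold change was 0.31 (SE 0.28), with an adjusted p of 0.951 in edgeR. *Cd79a* (ENSMUSG00000003379, chr7:24897381-24902197, plus strand) did not reach the filter of more than 50 counts in at least 2 libraries, with 25, 22 and 64 counts in the controls and 45, 37 and 46 in SRF mice. These were 1.19 to 2.67 CPM in controls and 2.06 to 2.58 CPM in SRF mice, and an exact permutation test of the CPM, two-sided, gave p = 0.5.

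*Mzb1*, an endoplasmic reticulum protein of marginal zone B cells and plasma cells that helps antibody assembly (ENSMUSG00000024353), was at the limit of counting, with 4, 1 and 11 counts in the controls and 3 in each SRF mouse. No difference could be detected at this depth (exact permutation test, two-sided, p = 0.4), and 53.5% of the 50-base stretches of its transcripts are shared with the overlapping gene *SPATA24*, so its few counts are uncertain. *Pou2af1* (ENSMUSG00000032053, chr9:51213708-51240080, plus strand), a coactivator of octamer-binding factors in B cells, was the gene not listed.

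*Xbp1* (ENSMUSG00000020484, chr11:5520659-5525893, plus strand) was the most abundant of the 8 genes, and its groups differed by less than the spread between mice. It had 3046, 5220 and 7241 counts in the controls and 4983, 4888 and 5047 in SRF mice, or 227, 283 and 302 against 269, 272 and 283 CPM. All 3 SRF mice lay inside the range of the control mice. The means were 271 ± 39.2 and 275 ± 7.0 CPM, and the log2 fold change of 0.02 (SE 0.13) had an unadjusted p of 0.877 and an adjusted p of 0.9999 in edgeR. Its sign depended on control mouse 1, without which it was -0.09. XBP1 acts in every secretory cell and not in plasma cells alone.

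Of the 6 tested genes, 2 (*Igkc* and *Igha*) had an unadjusted p under 0.05, both with the higher level in SRF, beside 4.16% of all tested genes in that direction. For 3 (*Igkc*, *Ighm* and *Igha*) the groups did not overlap, with SRF higher, beside 6.71% of all tested genes. All 6 log2 fold changes were above 0, with a median of 0.64, against a median of 0.00 over all tested genes, though that of *Xbp1* turned negative without control mouse 1. For a single gene the exact permutation test cannot go under p = 0.1 with 3 mice against 3, the value that *Igkc*, *Ighm* and *Igha* each had.

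**Figure D2:**
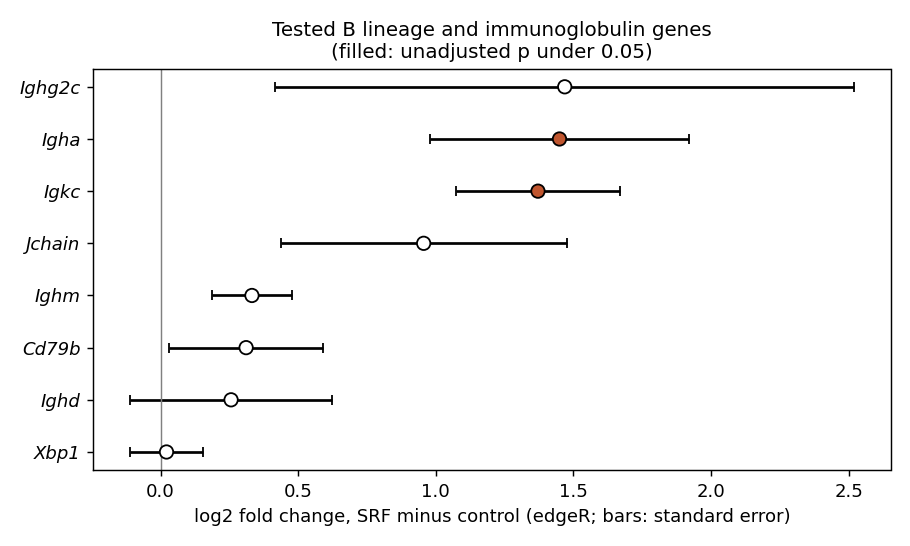
Log2 fold change, SRF minus control, from the edgeR fit (x axis, points; bars are the standard error) for the 6 tested genes of the 9 and for *Ighg2c* and *Ighd*. Filled points have an unadjusted p under 0.05 and are *Igkc* (1.37) and *Igha* (1.45), while *Xbp1* lies at 0.02.

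Levels of different genes were compared in FPKM, in which fragments are divided by transcript length and library size. In control mice the order was *Xbp1* (129 ± 19.1 FPKM), *Igkc* (19.8 ± 8.32), *Ighm* (15.3 ± 2.36), *Igha* (6.26 ± 3.62), *Jchain* (3.94 ± 2.29), *Cd79b* (2.78 ± 0.668), *Cd79a* (1.28 ± 0.501) and *Mzb1* (0.293 ± 0.221). In SRF mice the order was the same, with *Xbp1* at 135 ± 2.22 FPKM, *Igkc* at 52.7 ± 7.11, *Ighm* at 20.1 ± 1.91, *Igha* at 17.6 ± 7.45, *Jchain* at 7.86 ± 3.63, *Cd79b* at 3.58 ± 0.0529, *Cd79a* at 1.64 ± 0.171 and *Mzb1* at 0.187 ± 0.00577. Neighbours overlapped in their ranges over mice for *Igkc* and *Ighm* and for *Igha*, *Jchain* and *Cd79b* in control mice. In SRF mice *Ighm* and *Igha* overlapped, while *Igkc* (48.2 to 60.9 FPKM) lay above *Ighm* (19.0 to 22.3 FPKM) in every mouse. Relative to the mean, *Xbp1* and *Cd79b* had the narrowest spread between SRF mice among the 6 tested genes, and *Igha* and *Jchain* the widest.

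Of 432 annotated immunoglobulin genes, 9 were listed, and all of their counts together made up 60.6, 45.6 and 46.4 CPM, without TMM scaling, in control mice and 77.7, 120.6 and 84.4 CPM in SRF mice. Besides *Igkc*, *Ighm* and *Igha* these were *Ighd*, *Ighg2c*, *Iglc1*, *Iglc2*, *Iglc3* and *Iglv1*. *Ighd*, the constant part of IgD, had 29, 33 and 58 counts in the controls and 53, 32 and 53 in SRF mice, and its log2 fold change of 0.26 (SE 0.37) had an unadjusted p of 0.508 in edgeR. *Ighg2c*, an IgG heavy chain of C57BL/6 mice, varied widely between animals, with 65, 34 and 23 counts in the controls and 9, 239 and 126 in SRF mice. Its lowest and highest values were both in SRF, and its log2 fold change of 1.47 (SE 1.05) had an unadjusted p of 0.206 in edgeR. It was 0.58 without SRF mouse 2 and 2.32 without control mouse 1. *Ighg2c* shares 5.49% of its 50-base stretches with *Ighg2b*, which was not listed, as were *Ighg1* and *Ighg3*.

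The lambda genes had 3 to 65 counts per library and were not tested. *Iglc1* had 9, 30 and 11 counts in the controls and 10, 65 and 5 in SRF mice, and *Iglv1*, a lambda variable gene, 12, 20 and 6 against 8, 44 and 10. Both were highest in SRF mouse 2, the mouse with the highest CPM of *Igkc*, *Ighm*, *Igha*, *Jchain* and *Ighg2c*. *Iglc2* had 17, 25 and 53 counts in the controls and 33, 17 and 11 in SRF mice, and *Iglc3* 18, 3 and 12 against 14, 12 and 15. For both, the groups overlapped, unlike *Igkc*.

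The make-up of the listed antibody RNA was read from shares within each library, which do not depend on how library size is scaled. Genes that were not listed, *Ighg1*, *Ighg2b* and *Ighg3* among them, are missing from these shares, and their level in single mice is not known. *Igha* was 27.5%, 18.4% and 9.77% of the heavy chain counts in control mice 1, 2 and 3 (of 561, 608 and 880 counts of *Igha*, *Ighd*, *Ighg2c* and *Ighm*) and 28.7%, 35.8% and 27.7% in SRF mice 1, 2 and 3 (of 878, 1409 and 999). The means were 18.5% ± 8.84 in control and 30.8% ± 4.43 in SRF mice. The 95% Wilson intervals of control mouse 1 (23.9% to 31.3%), SRF mouse 1 (25.8% to 31.8%) and SRF mouse 3 (25.04% to 30.6%) overlapped. Those of control mice 2 and 3 lay below them, and that of SRF mouse 2 (33.4% to 38.4%) lay above them. These intervals cover counting error only. *Ighm* was 55.8%, 70.6% and 81.0% of heavy chain counts in the controls and 64.2%, 44.9% and 54.4% in SRF mice, with overlapping groups.

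Among light chain constant counts (*Igkc*, *Iglc1*, *Iglc2* and *Iglc3*), *Igkc* was 82.7%, 75.1% and 68.7% in control mice and 89.3%, 85.8% and 93.6% in SRF mice. All SRF mice lay above all control mice, with means of 75.5% ± 7.02 and 89.6% ± 3.91. Relative to *Ighm*, *Igkc* was also higher in SRF, the ratio of their FPKM being 2.09, 1.25 and 0.717 in control mice and 2.58, 2.73 and 2.54 in SRF mice. The ratio of *Igkc* to *Cd79b* FPKM, a secreted and surface chain against a surface partner, was 11.7, 7.57 and 3.64 against 13.5, 16.9 and 13.7. The ratio of *Jchain* to *Igha* FPKM was 0.641, 0.544 and 0.737 against 0.2998, 0.404 and 0.653, with overlapping groups. Over 7 such shares and ratios the exact permutation test gave p = 0.1, its minimum, for 4 (the *Igha* and *Igkc* shares and the ratios of *Igkc* to *Ighm* and to *Cd79b*), and 0.175 after Benjamini-Hochberg adjustment. For the other 3 it gave 0.2 to 0.6. Each of the 4 holds the *Igkc* or *Igha* values given above, which did not overlap between the groups, so none is separate support.

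**Figure D3:**
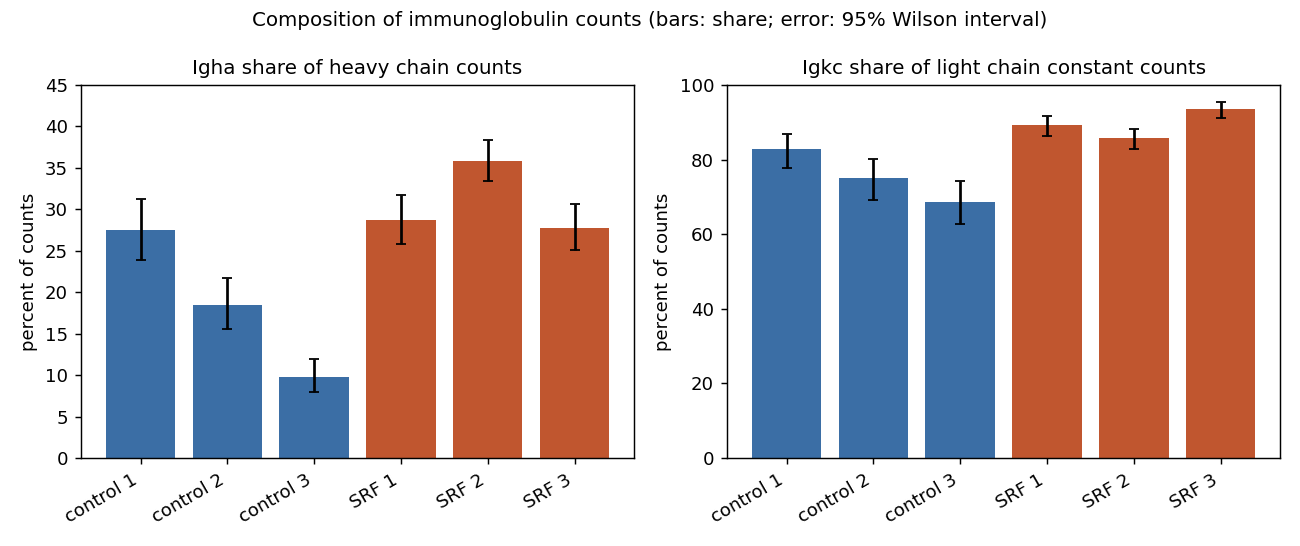
Share of *Igha* among heavy chain counts (left, percent) and of *Igkc* among light chain constant counts (right, percent) in each mouse, with 95% Wilson intervals as error bars. The *Igha* share is 9.77% in control mouse 3 and 35.8% in SRF mouse 2, and control mouse 1 (27.5%) is level with SRF mice 1 and 3, while the *Igkc* share is higher in every SRF mouse than in any control mouse.

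Other genes of B cells and plasma cells were described from lists drawn up for their known roles, with earlier results of these data known. Of 22 B cell identity genes, all listed, 6 had enough counts to be tested, and 3 had an unadjusted p under 0.05, all higher in SRF, beside 4.16% of all tested genes in that direction. *Cd22*, an inhibitory co-receptor, had 21, 30 and 42 counts in the controls and 76, 96 and 83 in SRF mice, or 1.65 ± 0.0961 against 4.70 ± 0.620 CPM. It passed the count filter only through the SRF mice, where it was high, so its place in the count is no support. Its log2 fold change of 1.51 (SE 0.30) had an adjusted p of 0.272 in edgeR and 0.0128 in DESeq2. *Cd37*, a tetraspanin of B cells and other leukocytes, was 5.08 against 9.20 CPM (log2 fold change 0.86, unadjusted p 0.0119 in edgeR). *Ebf1*, a transcription factor that commits cells to the B lineage and is also made by mesenchymal cells, was 56.4 against 70.7 CPM (0.33, 0.0251).

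The genes of that list that are closest to B cells alone gave few counts. *Pax5* had 1, 2 and 7 counts in the controls and 2, 8 and 1 in SRF mice, and *Blk* had 1 to 3 in every library. Over all 22 genes the groups did not overlap for 6, all with SRF higher, beside 6.68% of all listed genes in that direction. These were *Cd22*, *Cd37*, *Cd72*, *Ebf1*, *Fcrla* (9 to 13 counts in control and 13 to 18 in SRF mice) and *Pou2f2* (21 to 43 and 40 to 56 counts), named here for that reason. *Cd72*, an inhibitory receptor that macrophages also carry, was 18.4 against 24.1 CPM and the most abundant of the list after *Ebf1* (log2 fold change 0.39, unadjusted p 0.0530 in edgeR).

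Of 17 genes of the plasma cell programme, 14 were listed and 9 tested. *Slamf7*, a surface receptor of plasma cells, natural killer cells and some macrophages, was the 1 gene with an unadjusted p under 0.05 (4.16% of all tested genes with SRF higher), at 10.9 against 19.7 CPM (log2 fold change 0.86, SE 0.21, adjusted p 0.402 in edgeR and 0.0614 in DESeq2). The factors that direct the plasma cell state had overlapping groups. *Prdm1*, which encodes BLIMP1, had 217, 413 and 422 counts in the controls and 288, 202 and 347 in SRF mice (log2 fold change -0.28, unadjusted p 0.275 in edgeR), and *Irf4*, under the filter, had 39, 28 and 42 against 46, 46 and 65. *Tnfrsf17*, the receptor BCMA of plasma cells, had 1, 12 and 5 against 1, 3 and 1 counts, and *Derl3* had 25, 31 and 25 against 28, 10 and 17. *Txndc5* and *Sec11c*, secretory genes that many cells use, were the most abundant, at 158 against 182 CPM and 72.2 against 70.8 CPM. The median log2 fold change of the 9 was 0.20.

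*Sdc1*, the plasma cell surface marker CD138, is also made by epithelia. It had 25.7, 60.8 and 116 CPM in control mice and 67.4, 81.3 and 57.4 CPM in SRF mice, a log2 fold change of 0.02. *Krt5*, a keratin of surface epithelium, had 17.9, 83.2 and 159 against 76.9, 88.8 and 36.2 CPM, and *Krt12*, the corneal keratin, 6.25, 129 and 167 against 66.9, 21.8 and 18.5 CPM. All 3 were lowest in control mouse 1 and highest in control mouse 3. The summed CPM of 11 listed ocular surface and gland genes was 221 to 2421 in control mice and 638 to 1197 in SRF mice, and its part in the level of *Sdc1* was not tested. None of the 10 tested genes of that list had an unadjusted p under 0.05, and their median log2 fold change was -0.32.

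Of 20 genes of B cell receptor signalling, 19 were tested, 17 had a log2 fold change above 0, beside 6773 of all 13454 tested genes, and 2 had an unadjusted p under 0.05, both higher in SRF, beside 4.16% of all tested genes. *Vav1*, an exchange factor of blood cells that acts below antigen receptors, was 3.62 against 8.29 CPM (log2 fold change 1.19, SE 0.26, adjusted p 0.311 in edgeR and 0.0302 in DESeq2). *Inpp5d*, the inositol phosphatase SHIP1, was 14.6 against 20.4 CPM (0.48, unadjusted p 0.0311 in edgeR). *Cd81* and *Prkcb*, the most abundant, were 1595 against 1567 CPM and 72.4 against 79.1 CPM. The median over the list was 0.25.

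For *Xbp1* the list was that of the unfolded protein response and the secretory machinery. All 25 genes were tested and none had an unadjusted p under 0.05. Their log2 fold changes lay between -0.17 and 0.40, with a median of 0.03, 15 above 0 and 10 below. *Hspa5*, the chaperone BiP, was 719 against 763 CPM and *Hsp90b1*, the chaperone GRP94, 503 against 487 CPM. The groups did not overlap for 3, *Pdia6*, *Sec61a1* and *Wfs1*, with SRF higher and log2 fold changes of 0.18 to 0.25, beside 6.71% of all tested genes.

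Of 17 genes of the niche in which B cells and plasma cells lodge, 15 were listed and 9 tested. *Madcam1*, an adhesion molecule that draws lymphocytes to mucosal vessels, had 8, 10 and 25 counts in the controls and 58, 64 and 65 in SRF mice. No control mouse was above 50 counts, so it was tested only because the SRF mice were. Its CPM was 0.727 against 3.45, and the log2 fold change of 2.22 (SE 0.41) had an adjusted p of 0.246 in edgeR and 0.00448 in DESeq2. The study had called *Madcam1* from these same libraries, so its value is not separate support. *Tnfsf13b*, the B cell survival factor BAFF, had 14, 28 and 45 counts against 53, 69 and 30, with overlapping groups and no control mouse above 50 counts (0.90, unadjusted p 0.0848 in edgeR). *Cxcl12*, which holds plasma cells in the bone marrow, and *Icam1* were the most abundant, at 266 against 296 CPM and 78.7 against 93.5 CPM. *Cxcl13*, the chemokine that draws B cells into follicles, had 23, 8 and 3 counts against 2, 6 and 7. *Pigr*, the receptor that carries polymeric IgA across epithelia, had 1, 9 and 26 against 6, 12 and 14.

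**Figure D4:**
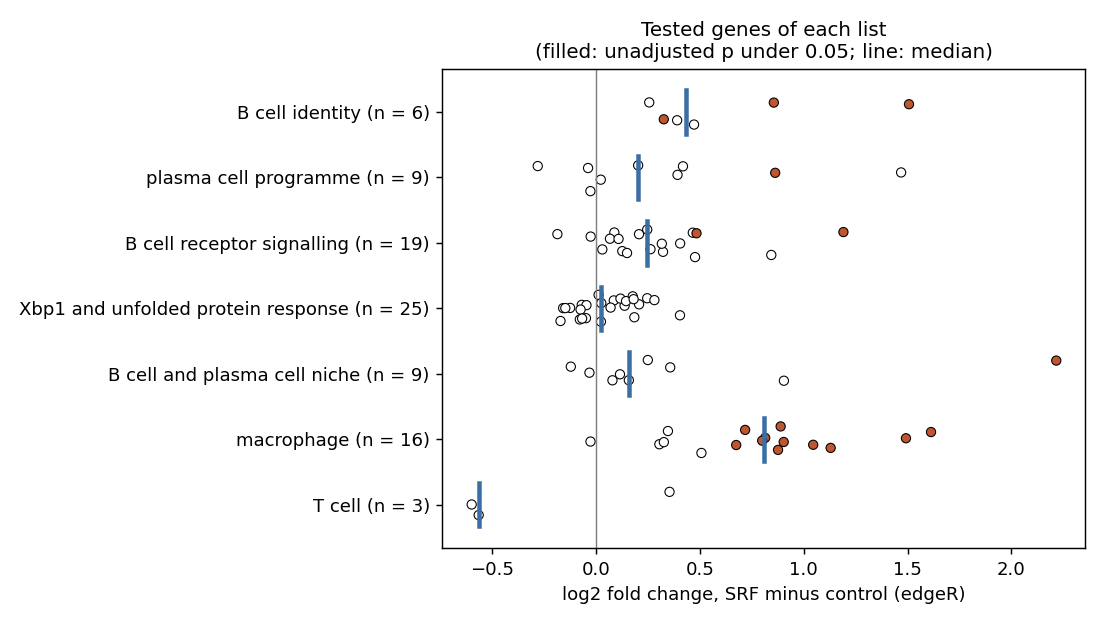
Log2 fold change, SRF minus control, from the edgeR fit (x axis) of every tested gene in 7 lists (y axis, with the number tested), filled where the unadjusted p is under 0.05, and with the median of each list as a line. The medians are 0.20 for the plasma cell programme, 0.03 for the unfolded protein response and 0.81 for macrophage genes.

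Of 16 macrophage genes, all were tested and none was called in edgeR. In that test 11 had an unadjusted p under 0.05, all higher in SRF (4.16% of all tested genes). For 11 the groups did not overlap, with SRF higher (6.71%). DESeq2 called 8 of the 16, all higher in SRF, beside 0.803% of all tested genes in that direction. The study had called *Cd68*, *Ctss*, *Lyz2* and *C1qb* of this list from these same libraries, and also reported them higher in SRF by qRT-PCR. Since those calls used the same libraries, the counts of genes given here are not separate support. *Csf1r*, the receptor for macrophage growth factor, was 162 against 159 CPM (log2 fold change -0.03, unadjusted p 0.822 in edgeR). The summed CPM of the 16 genes was 1696, 2186 and 2163 in control mice and 3954, 5696 and 4221 in SRF mice. It was highest in SRF mouse 2, as *Igkc*, *Ighm* and *Igha* were. *Lyz2*, the macrophage lysozyme, was 915 against 2574 CPM, *Ctss* 180 against 552 CPM and *Cd68* 77.9 against 161 CPM. *Adgre1*, the macrophage marker F4/80, was 12.4, 15.1 and 21.2 against 16.1, 35.4 and 38.9 CPM, with overlapping groups. *Cd22*, *Cd37*, *Cd72*, *Slamf7*, *Vav1* and *Inpp5d* are not confined to B cells, and the part of macrophage RNA in their values was not tested.

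T cell genes gave few counts. Of 12, 3 were tested, with a median log2 fold change of -0.56, and the summed CPM of the 12 was 25.3, 27.9 and 26.6 in control mice and 21.5, 14.6 and 20.6 in SRF mice. *Cd4*, a tested gene of the list, was 4.38 against 5.63 CPM (log2 fold change 0.35, unadjusted p 0.44 in edgeR), and *Cd3e* had 10, 27 and 18 counts against 15, 12 and 6. Over the 12 listed genes the groups did not overlap for 6, all with SRF lower, beside 5.98% of all listed genes in that direction, and among them *Cd3d* had 22, 35 and 25 counts against 16, 7 and 14. Of 15 RPE genes 6 had an unadjusted p under 0.05, all lower in SRF, beside 2.85% of all tested genes, *Rpe65* being 4211 against 2954 CPM. *Rrh*, among the 6, had been called by the study from these same libraries.

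The genes whose pattern over the 6 mice was most like that of *Jchain*, *Igkc*, *Ighm* and *Igha* together were found by the root mean square difference between their centred log2 CPM and the mean of the 4. They were *Siah2* (0.17), *Tle1* (0.20), *B3gnt7* (0.20), *Garem1* (0.23) and *Arl4c* (0.24), against a median of 0.69 over all tested genes. For *Xbp1* they were *Orai3*, *Anapc5*, *Mfsd5*, *Tapbpl* and *Lrrc8a*, each at 0.03, against a median of 0.26. The 10 were picked for the smallest differences, so their place under the medians was fixed by that choice and is no support. None of the 10 is an immunoglobulin gene by annotation, since those were left out of the search.

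**Figure D5:**
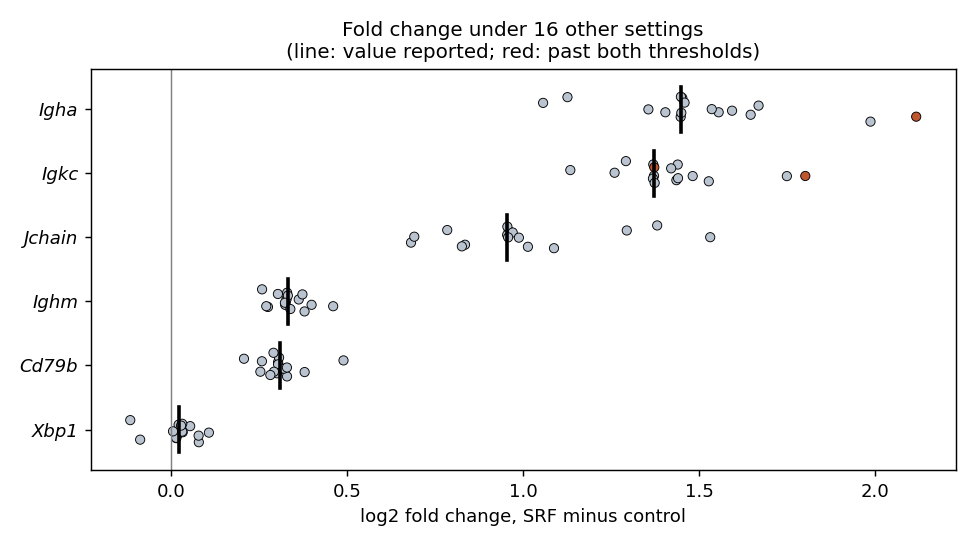
Log2 fold change, SRF minus control (x axis), of the 6 tested genes under 16 other settings, which change the tool, the scaling, the filter or the mice included. The vertical line is the value reported and red points pass both thresholds. *Igkc* stays between 1.13 and 1.80 and *Igha* between 1.06 and 2.12, and the values of *Xbp1* lie on both sides of 0.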

How the data were processed

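RNA-seq of RPE-choroid from 3 control and 3 SRF mice was analysed, with groups and mouse numbers from the sample labels. The authors filtered reads with FASTP 0.18.0 and counted reads on genes with StringTie, and the counts they deposited are raw whole numbers. FPKM values, scaled by transcript length and mapped reads, were deposited beside them. The aligner, genome build, annotation and strandedness are not given in the sources used here, so reads of overlapping genes cannot be assigned by strand. Identifiers were matched to GENCODE M21 (GRCm38), in which 15659 of 15663 were found.

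Tested were the 13454 genes above 50 counts in 2 or more samples, with edgeR 4.0.16 in R 4.3.3 by the quasi-likelihood test (legacy = TRUE) with TMM normalization and the group as the only term. Benjamini-Hochberg adjustment was used, and the thresholds for a call were 0.05 for the adjusted p and 0.5 for the log2 fold change, either way. DESeq2 1.42.0 and limma 3.58.1 were alternatives, the latter on counts and on log2(FPKM + 0.1) and log2(FPKM + 1). Scaling, filters, a replicate block and the mice included were also varied. Single values were tested by exact permutation, two-sided. Values are given with the SD over mice, and fold changes with a standard error derived from the edgeR test. It is the absolute log2 fold change divided by the square root of the F statistic of that test. The tests were also run on simulated counts with the means and dispersions of these data. Of 100 genes given a log2 fold change of 1, either way, edgeR recovered 26 and DESeq2 52. With a log2 fold change of 2 they recovered 85 and 93 of 100. Among unchanged genes edgeR called 9 and DESeq2 52.

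The genes named were the 9 chosen genes, every listed immunoglobulin gene, from each list up to 6 genes with an unadjusted p under 0.05 and the 2 most abundant, defining markers of other cell types, and the 5 genes most alike in pattern. The 9 genes, the lists and the tests were chosen with earlier results of these data known. Results that concern a few marker genes are not reported here. Genes given besides these were picked from the lists after their values were seen. The mice are separate animals, and the depth of 13667310 to 24356023 counts per library gave log2 fold changes a median standard error of 0.19.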

Additional observations from a re-analysis of the deposited data

How the results depend on the processing

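Over 16 other settings *Igkc*, *Ighm*, *Igha*, *Jchain* and *Cd79b* kept the sign of their log2 fold change, and *Xbp1* did not. The number of genes called over all tested genes, 0 as reported, was 1 without a filter, with edgeR's own filter, with legacy = FALSE and with limma-voom, 2 with limma on log2(FPKM + 0.1) or log2(FPKM + 1), and 153 with DESeq2. It was also 153 without control mouse 1 and SRF mouse 3 together, and 0 to 5 with 1 mouse left out, the 5 being without control mouse 1. Of the 6 tested genes, DESeq2 called 1 (*Igkc*, 1.37) and the fit without both mice 2 (*Igkc*, 1.80, and *Igha*, 2.12), and none was called with 1 mouse left out. Between 1 and 3 of the 6 had an unadjusted p under 0.05 with 1 mouse left out, 1 without control mouse 2 or SRF mouse 2. With 1 mouse left out, log2 fold changes were 1.13 to 1.75 for *Igkc*, 1.06 to 1.99 for *Igha*, 0.68 to 1.53 for *Jchain*, 0.26 to 0.46 for *Ighm*, 0.21 to 0.49 for *Cd79b* and -0.0878 to 0.11 for *Xbp1*, which was -0.12 without both mice. Adjusted p-values over all settings were 0.00271 to 0.9999 for *Igkc* and 0.0393 to 0.9999 for *Igha*. Genes of the 9 and of the lists with an unadjusted p under 0.05 numbered 26, 19 to 31 with 1 mouse left out, and 40 without both mice. Signs also turned for 6 abundant list genes near 0. *Cd81* (-0.03) was 0.0272 on either FPKM scale and -0.11 to 0.0223 with 1 mouse left out, and *Hsp90b1* (-0.05) was 0.0021 on either FPKM scale, 0.0267 without both mice and -0.10 to 0.0045 with 1 left out. *Sec11c* (-0.03) was 0.0277 and 0.0274 on the FPKM scales, 0.0931 without both mice and -0.0908 to 0.0562 with 1 left out. *Prkcb* (0.13) was -0.18 without both mice and -0.0534 to 0.26 with 1 left out, *Txndc5* (0.20) was -0.0812 without both mice, and *Hspa5* (0.09) was -0.0039 to 0.14 with 1 left out. The cause was not tested. A shared mouse number does not mean a shared animal. The deviations of such pairs from the group means correlated at -0.48, 0.49 and -0.30 across 13454 genes. Photoreceptor RNA was uneven between the libraries and its part in these values was not tested, so they cannot show whether the numbers pair the mice. With the replicate number as a block 0 genes were called, 33 genes of the 9 and the lists and 2 of the 6 had an unadjusted p under 0.05, and log2 fold changes were 1.44 for *Igkc*, 1.54 for *Igha*, 1.01 for *Jchain*, 0.34 for *Ighm* and 0.03 for *Xbp1*. The counts of *Cd79a*, *Mzb1*, *Ms4a1* and the lambda genes were too few to show any but large differences.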
